A study of Homo sapiens with 7 samples.

Results

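The 35 genes described here encode the ESCRT complexes and the retromer, the machines that sort membrane proteins on endosomes. They were chosen by gene symbol from a list of the subunits of both systems and were found among 36337 gene names on an Agilent expression array. The list holds 3 genes of ESCRT-0, 5 of ESCRT-I, 3 of ESCRT-II, 10 of ESCRT-III, 6 of the VPS4 ATPase and accessory group, 4 of the retromer core and 4 retromer sorting nexins. Their mRNA was measured in HCT116 H2B-GFP cells exposed to bafilomycin A1 at 10 nM for 30 h.

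HCT116 is a diploid human colon carcinoma line, and this derivative carries histone H2B fused to green fluorescent protein. Bafilomycin A1 inhibits the vacuolar proton pump and so prevents the acidification of endosomes and lysosomes. The treatment served the study as one of several stress conditions set beside aneuploid cell lines, and 4 treated samples described as biological replicates were each hybridized, labelled with Cy3, to 1 array. The 3 untreated samples of the same line were not analysed here, so that no change caused by the drug and no p-value is given, and comparisons are made between the 4 arrays and between groups of genes.

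ESCRT-0 gathers ubiquitinated receptors on the endosome, ESCRT-I and ESCRT-II take them over, and filaments of ESCRT-III bud the membrane inward and pinch off the vesicle. The ATPase VPS4 then takes the filaments apart. Cargo handled in this way ends in the lysosome, and the same ESCRT-III filaments also cut the membrane neck between dividing cells and seal damaged membranes. The retromer works in the opposite direction, carrying receptors such as the mannose 6-phosphate receptor from the endosome back to the trans-Golgi network or the plasma membrane.

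Several of these transcripts were covered by more than 1 probe, and on replicates 2 and 3 the probes of a transcript often deviated differently from one another. Probe sequences of 5 such transcripts, chosen after their values were seen, are shown for that reason. Each is the first 30 bases of a 60-base probe, with G and C in capitals. The GC contents given below are those of the whole probe, and the part shown need not share their differences. Positions are those of the deposited files, on the GRCh37 build, and the number after the gene gives the start of the probe in the transcript. The STAM probes began on the plus strand at chr10:17738808-17738837 and chr10:17757003-17757032.
STAM 977: GGCataGGGttatttCCttCtaattttGtG
STAM 2061: attCCtttCataatatGaaaGaattGataC

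The PDCD6IP probes began on the plus strand at chr3:33894107-33894136 and chr3:33910819-33910848.
PDCD6IP 1923: aaGatGGtGtGataaatGaaGaaGCtCttt
PDCD6IP 5563: GaCGtttGCaattattaGttGattCaCaGt

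The first VTA1 probe crossed a splice junction within chr6:142519744-142525172 on the plus strand, and the second began at chr6:142541402-142541431.
VTA1 703: aCaGCaCaGGtGtaGCaaGtaataCtatCC
VTA1 2560: CaGGatGaCCtttaGtGttaCatGatGttC

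The VPS35 probes lay on the minus strand. The first began at chr16:46705706-46705735, the second crossed a splice junction within chr16:46694523-46695648, and the last began at chr16:46694210-46694239.
VPS35 1504: aaGatCaGCCaGatCaaCCtGtaGaaGaCC
VPS35 2291: tGaaaaGGaaaatGatGCGGtaaCaattCa
VPS35 2634: tCCGGaCaCtCaCCttCaGGaCCttaataa

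The CHMP1A probes began on the minus strand at chr16:89715865-89715894 and chr16:89711101-89711130.
CHMP1A 249: GaaaaatGtaGaGtGtGCCCGtGtGtatGC
CHMP1A 2067: GGCtCaCtGCatttGGttttCttttCaGaa

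The 4 arrays lay on 1 slide, so the slide could not be tested as a batch. Between 55.6% and 60.4% of the spots on an array were well above background, 0 spots were saturated, and replicate 3 had 2249 spots marked as outliers against 514 to 725 on the others. Levels are given as the log2 of the background-subtracted signal minus the array median of the signals above 0. A value of 1 is thus double that median. The log2 median over all probes differed from it by -0.99 on replicate 1 to -1.22 on replicate 4. Probes differ in how strongly they bind, and levels are therefore compared between arrays within a gene and not between genes. In such bulk samples, fewer expressing cells and less RNA per cell cannot be told apart, and 4 arrays limit the precision of each mean. Of 6 epithelial markers, 5 were detected on all arrays (EPCAM, KRT8, KRT18, KRT19 and CDH1) and VIL1 on none. Of markers of other cells, 2 of 4 leukocyte genes (PTPRC and CD3E) and 2 of 3 endothelial genes (CDH5 and VWF) were detected on all arrays. So was 1 of 5 fibroblast genes (COL1A1), whereas PECAM1, COL1A2, COL3A1 and PDGFRB were detected on none. Detection included low signals, since CD3E passed at levels from -0.48 to -0.14, below the median used for centring. The brightest probe of COL1A1 had levels from 2.62 to 3.26.

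All 35 genes were detected, each having 1 or more probes that exceeded the background clearly on every array, beside 52.5% of all gene names. Of their 47 probes, 46 were well above background on every array and none of their spots was marked as an outlier. The exception was the second probe of VPS37A, which passed on replicates 1 and 2 only. The median SD between replicates was 0.17 on the log2 scale for these genes and 0.21 for the 19083 detected genes, and 9 of the 35 spanned more than 1.4-fold between the lowest and the highest array, beside 46.4% of all detected genes. The fold of 1.4 serves here only as a measure of replicate spread. The count was 2 without replicate 3 and depended on the normalization: it was 4 after normexp background correction and quantile normalization, beside 15.5% of all detected genes, 5 with the processed signal of the scanner software, beside 39.1%, and 14 with arrays centred on a median that counts all probes, beside 51.4%.

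**Figure D1:**
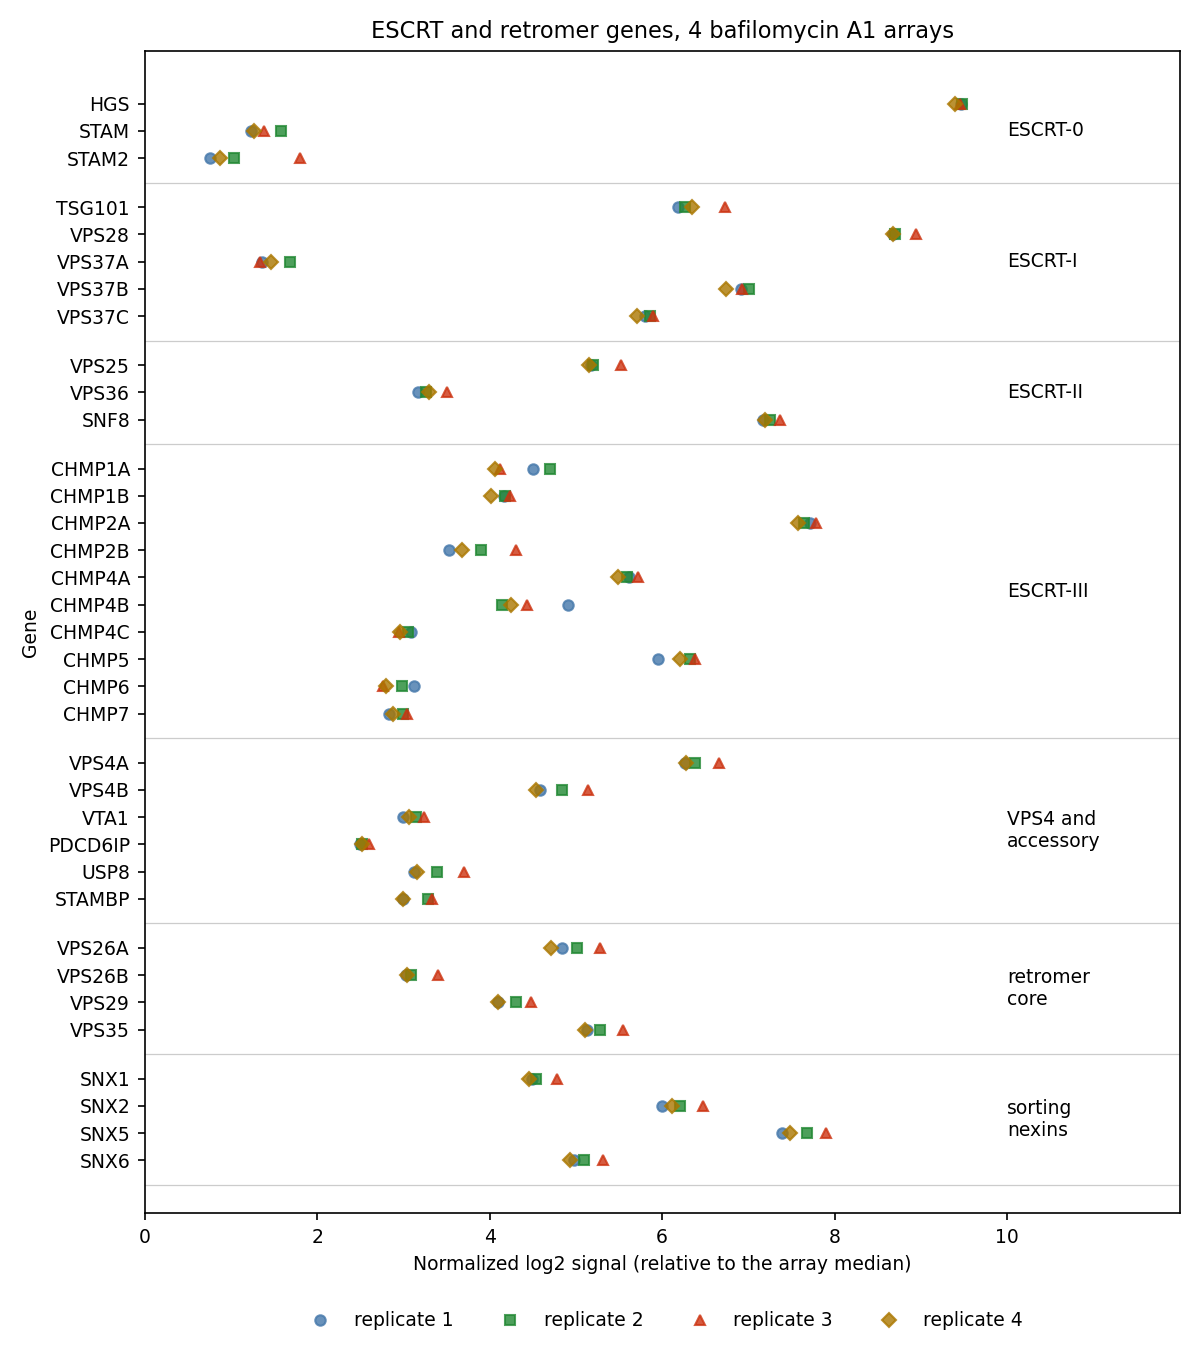
Normalized log2 signal (horizontal axis, relative to the array median) of the 35 ESCRT and retromer genes on each of the 4 bafilomycin A1 arrays; each symbol is 1 replicate. Replicate 3 is the highest of the 4 for 27 genes, among them all 4 retromer core genes and all 4 sorting nexins.

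In ESCRT-0, the spread between replicates was small for HGS when arrays were centred on their median, and larger for STAM2. HGS, which binds ubiquitinated cargo and recruits ESCRT-I, had levels of 9.46, 9.47, 9.46 and 9.40 on replicates 1 to 4 (mean 9.45 ± 0.03, SD, n = 4). A smaller SD was found in 0.267% of detected genes. The SD of HGS was 0.07 with the processed signal or with all probes counted in the centring, and 0.11 after quantile normalization, close to the median of all detected genes (0.11). STAM2, its partner adaptor, had levels of 0.76, 1.04, 1.80 and 0.87 (1.12 ± 0.47), a span of 2.05-fold. Replicate 3 stood above the other three. STAM2 had the largest SD of the 35 genes here, with the processed signal and with all probes counted in the centring, but after quantile normalization CHMP4B (0.37) exceeded it (0.29). Its probe also had the lowest GC content of all probes of these genes, 31.7%. STAM, the second adaptor, had levels of 1.24, 1.58, 1.38 and 1.27 as the median of its pair of probes.

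In ESCRT-I, TSG101 and VPS28 were highest on replicate 3, and the VPS37 genes spanned less than 1.4-fold. TSG101, the ubiquitin-binding subunit that HIV and other viruses recruit for budding, had levels of 6.18, 6.26, 6.73 and 6.34 (6.38 ± 0.24), a span of 1.46-fold. VPS28, the subunit that contacts ESCRT-II, had levels of 8.67, 8.70, 8.95 and 8.68 (8.75 ± 0.13). For VPS28 the other three replicates lay close together, and replicate 3 was apart from them. VPS37B had levels from 6.73 to 7.01 and VPS37C from 5.71 to 5.89. VPS37A lay between 1.33 and 1.68 as the median of a bright and a dim probe, and its bright probe alone had a mean of 4.65 with replicate 3 highest at 4.92.

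The 3 subunits of ESCRT-II, which links ESCRT-I to ESCRT-III, were each highest on replicate 3. VPS25, the subunit that binds ESCRT-III, had levels of 5.18, 5.20, 5.52 and 5.15 (5.26 ± 0.18). Here too the other three replicates were close together and replicate 3 stood apart. VPS36, the subunit that binds ubiquitin and membrane lipid, had levels of 3.17, 3.27, 3.51 and 3.30. SNF8, the third subunit, had levels of 7.17, 7.25, 7.37 and 7.19.

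The 10 ESCRT-III genes had no common order of the arrays. CHMP2B, a filament subunit mutated in a form of frontotemporal dementia, had levels of 3.53, 3.90, 4.30 and 3.68 (3.85 ± 0.33), highest on replicate 3 with a span of 1.70-fold. CHMP4B, the main building block of the filament, had levels of 4.91, 4.15, 4.43 and 4.25 (4.43 ± 0.34), highest on replicate 1 with a span of 1.69-fold. CHMP1A, a late-acting subunit, had levels of 4.50, 4.70, 4.12 and 4.06 (4.34 ± 0.31), lower on replicates 3 and 4 than on the other pair.

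CHMP6, which starts the filament on ESCRT-II, had levels of 3.12, 2.98, 2.76 and 2.80, so that replicate 3 was the lowest. CHMP4C, which acts in the abscission checkpoint, was also lowest on replicate 3, at 2.95 against 3.09, 3.05 and 2.96. CHMP5 had levels of 5.95, 6.32, 6.38 and 6.20, with replicate 1 lowest. Each of these 3 genes spanned less than 1.4-fold, as did the genes that follow. CHMP2A, which joins CHMP4 filaments, ranged from 7.58 to 7.78, and CHMP4A from 5.49 to 5.72. CHMP1B ranged from 4.01 to 4.24, and CHMP7, which brings ESCRT-III to the nuclear envelope, from 2.83 to 3.04. CHMP2A, CHMP4A, CHMP1B and CHMP7 were highest on replicate 3.

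All 6 genes of the VPS4 and accessory group were highest on replicate 3. The ATPase VPS4B had levels of 4.59, 4.83, 5.15 and 4.54 (4.78 ± 0.28), a span of 1.53-fold. Its paralogue VPS4A had levels of 6.27, 6.38, 6.66 and 6.28 (6.40 ± 0.18). Both ATPases thus had replicate 3 highest, with replicate 2 next. The deubiquitinase USP8, which removes ubiquitin from cargo and stabilizes ESCRT-0, had levels of 3.12, 3.39, 3.70 and 3.16 (3.34 ± 0.27), a span of 1.49-fold. STAMBP, a second deubiquitinase, had levels of 3.00, 3.29, 3.33 and 2.99. The VPS4 cofactor VTA1 ranged from 3.00 to 3.24. PDCD6IP, also called ALIX, which bridges ESCRT-I and ESCRT-III, ranged from 2.50 to 2.60 as the median of 3 probes, although its single probes spread more widely.

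Each of the 4 retromer core genes was highest on replicate 3 and second highest on replicate 2. That order was found in 22 of the 35 genes, the 4 sorting nexins included, beside 27.4% of all detected genes, and after quantile normalization in 10 of the 35, beside 11.3%. It was found in 8 of the 35 with the processed signal, beside 10.1%, and in 8 with all probes counted in the centring, beside 14.1%. VPS35, the scaffold of the trimer, had levels of 5.13, 5.28, 5.55 and 5.10 (5.27 ± 0.21). VPS26A, its cargo-binding partner, had levels of 4.83, 5.01, 5.28 and 4.71 (4.96 ± 0.25), the widest span of the core at 1.49-fold. VPS29, the third subunit, had levels of 4.10, 4.31, 4.48 and 4.09 (4.25 ± 0.19). The arrays fell in the same order in these 3 genes, with replicates 3, 2, 1 and 4 from high to low. The alternative subunit VPS26B had levels of 3.03, 3.09, 3.40 and 3.04 (3.14 ± 0.17), with replicate 3 apart from the rest. Dixon's ratio sets the gap between an extreme array and its neighbour against the whole range. By this ratio, replicate 3 was apart in VPS28, VPS25 and VPS26B, 3 of the 35 genes. Any array was apart in 8.48% of all detected genes, a similar share.

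The sorting nexins, which bend the endosomal membrane into the tubules that retromer cargo leaves by, followed the core. SNX5 had levels of 7.39, 7.68, 7.90 and 7.49 (7.61 ± 0.23), a span of 1.43-fold. SNX2 had levels of 6.002, 6.20, 6.48 and 6.11 (6.20 ± 0.20). In both, replicate 3 was highest and replicate 1 lowest. SNX1 had levels of 4.49, 4.54, 4.78 and 4.45, and SNX6 of 4.98, 5.10, 5.32 and 4.94.

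In all, 27 of the 35 genes were highest on replicate 3, beside 48.5% of all detected genes, and 3 were lowest on it, beside 23.2%. The 3 lowest on it were VPS37A, CHMP4C and CHMP6. For VPS37A this rests on its dim probe, since its bright probe was highest on replicate 3. With detected probes only, 28 of the 35 genes were highest on it. Another 5 genes were highest on replicate 2, 3 on replicate 1 and 0 on replicate 4. By group, replicate 3 was highest for 4 of 4 retromer core genes, 4 of 4 sorting nexins, 6 of 6 VPS4 and accessory genes and 3 of 3 ESCRT-II genes. It was highest for 6 of 10 ESCRT-III genes, 3 of 5 ESCRT-I genes and 1 of 3 ESCRT-0 genes. Genes of a group share their arrays, so these counts describe 1 array and are no replicates of a condition.

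The groups also differed in how far replicate 3 lay from the mean of the 4 arrays. The mean deviation on replicate 3 was 0.28 for the retromer core, 0.25 for the sorting nexins, 0.24 for ESCRT-0, 0.23 for the VPS4 group and 0.19 for ESCRT-II. It was 0.11 for ESCRT-I, 0.06 for ESCRT-III and 0.07 for all detected genes. The value of ESCRT-0 rests on STAM2, since the median deviation of its 3 genes was 0.01. That of ESCRT-I includes VPS37A at -0.13, the median of a bright and a dim probe. The bright probe, well above background on every array, lay at 0.27. With detected probes only, the range of the ESCRT-I mean over the arrays was 0.28, against 0.18 with all probes. On replicate 4 every group lay below its mean, from -0.06 for ESCRT-II to -0.17 for the retromer core, and all detected genes were at -0.09. This direction depended on the centring: replicate 4 lay above the mean for ESCRT-I and ESCRT-II after quantile normalization (0.0022 and 0.03) and with the processed signal (0.05 and 0.03), and for ESCRT-I, ESCRT-II, ESCRT-III and the sorting nexins with all probes counted (0.05, 0.07, 0.0052 and 0.0095).

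**Figure D2:**
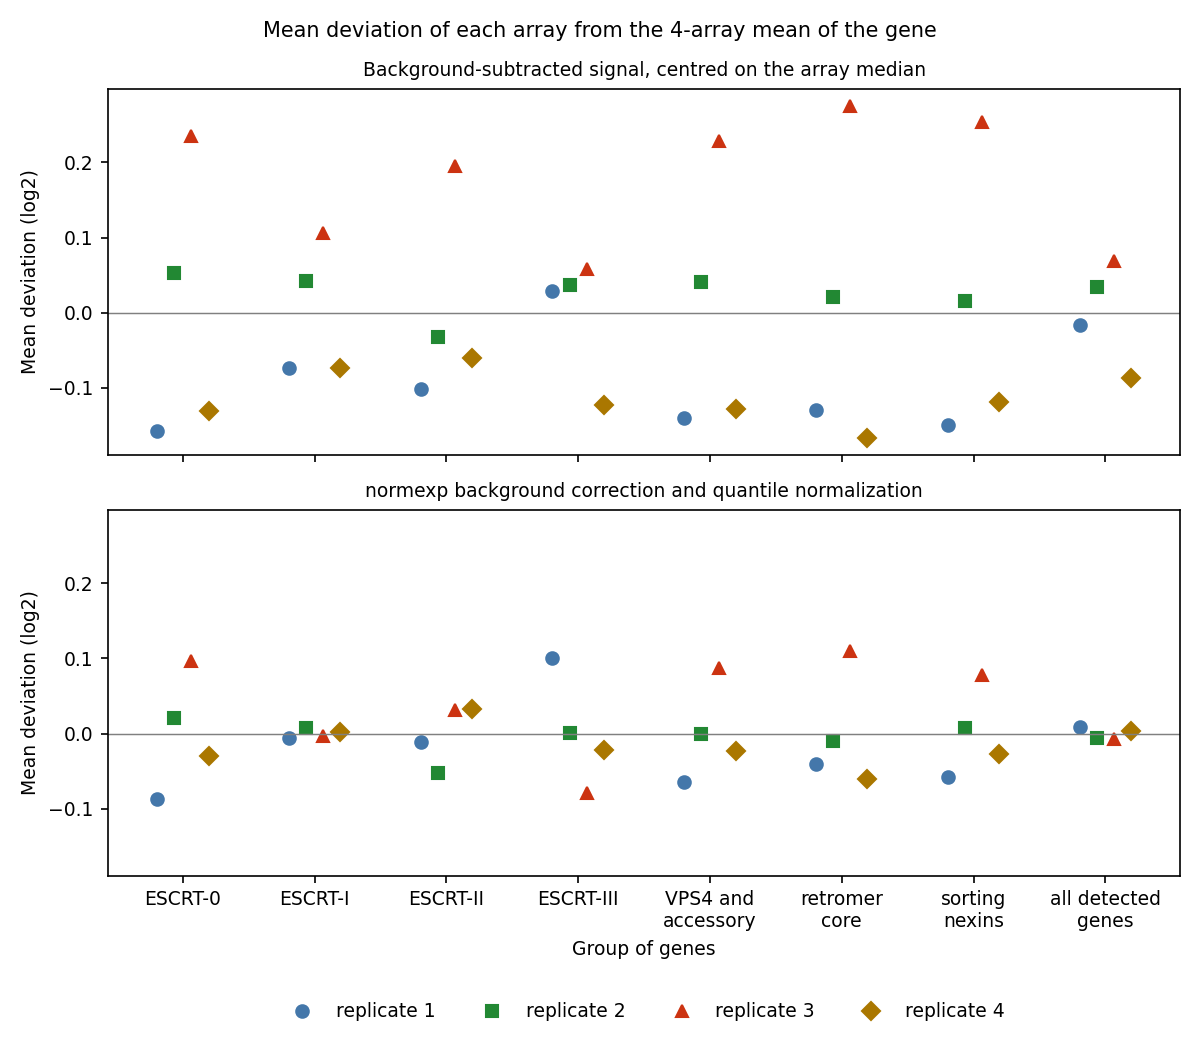
Mean over the genes of each group of the deviation of an array from the 4-array mean of the gene, in log2 units, under both normalizations named above the panels; each symbol is 1 replicate. Replicate 3 lies at 0.28 for the retromer core in the upper panel and at 0.11 in the lower one, whereas for ESCRT-III it lies at 0.06 and -0.08.

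Part of this order depended on how the arrays were normalized. After normexp and quantile normalization, which give all arrays the same distribution of signals, 16 of the 35 genes were highest on replicate 3, beside 36.5% of all detected genes. The 4 retromer core genes and the 4 sorting nexins were still highest on it, with mean deviations of 0.11 and 0.08. The VPS4 group had 3 of 6 genes highest on it, and a mean deviation of 0.09. ESCRT-II had 1 of 3 genes highest and 1 lowest on it, with a mean deviation of 0.03, ESCRT-I had 2 of 5 highest, with -0.0033, and ESCRT-0 1 of 3, with 0.10. ESCRT-III lay at -0.08 on replicate 3 and at 0.10 on replicate 1, with 1 of 10 genes highest and 6 of 10 lowest on replicate 3, beside 34% of all detected genes. With the processed signal, 23 of the 35 genes were highest on replicate 3, beside 40.5%, including again the 4 core genes and the 4 nexins, and 6 were lowest on it, beside 32.8%. No difference between groups of genes was tested, because the 4 arrays hold 1 condition.

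Replicate 3 also differed within transcripts. In 7 of the 35 genes, several detected probes were assigned to the same transcript, and in 6 of these the probe nearer the 3′ end had a higher deviation on replicate 3 than the one nearer the 5′ end. The difference had a median of 0.44 over the 7 genes. On replicate 2 the downstream probe was the higher in 1 of 7 genes, with a median difference of -0.31. On replicates 1 and 4 it was the higher in 2 of 7 genes each. Deviations are taken from the mean of a probe over the arrays, so the differences on the 4 replicates are not independent of one another. From the upstream to the downstream probe, GC content fell in STAM (41.7% to 35%), PDCD6IP (38.3% to 35%) and CHMP5 (43.3% to 35%). It also fell in VTA1 (45% to 35%) and VPS35 (45% to 38.3%). A rise was found in CHMP1A (51.7% to 53.3%) and in SNX6 (35% to 45%), the exception on replicate 3. Position and GC content thus cannot be told apart in most of these pairs.

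For PDCD6IP, the downstream probe had levels of 2.50, 2.52, 3.25 and 2.52, and the upstream probe of 2.67, 3.02, 2.60 and 2.68. The former was thus highest on replicate 3 and the latter on replicate 2. For STAM, the downstream probe had levels of 2.56, 2.79, 3.05 and 2.55, and the upstream probe of -0.08, 0.36, -0.29 and -0.01. Here the upstream probe was lowest on replicate 3, where the downstream probe was highest. The background-subtracted signal of the upstream STAM probe was only 57.5 to 90.1, against 372 to 582 for the downstream one.

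VPS35 had 3 probes along its transcript. The one starting at base 1504 had levels of 3.03, 3.43, 2.72 and 2.80, and was lowest on replicate 3. Those starting at bases 2291 and 2634 were highest on it, with levels of 5.13, 5.28, 5.55 and 5.10 and of 7.42, 7.42, 7.84 and 7.46. The high value of VPS35 on replicate 3 was therefore seen with both downstream probes and not with the upstream one.

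For VTA1, the upstream probe had levels of 2.92, 3.15, 2.88 and 2.95 and the downstream probe of 3.08, 3.15, 3.60 and 3.17. Again the former was lowest and the latter highest on replicate 3. For CHMP1A, both probes were lower on replicates 3 and 4, with 2.41, 2.79, 1.88 and 1.84 upstream and 6.59, 6.61, 6.36 and 6.28 downstream. The downstream probe of CHMP1A varied less, and the difference on replicate 3 was 0.26. The difference was 0.01 for CHMP5, whose probes start at bases 812 and 985, and it had the opposite sign for SNX6, at -0.35.

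**Figure D3:**
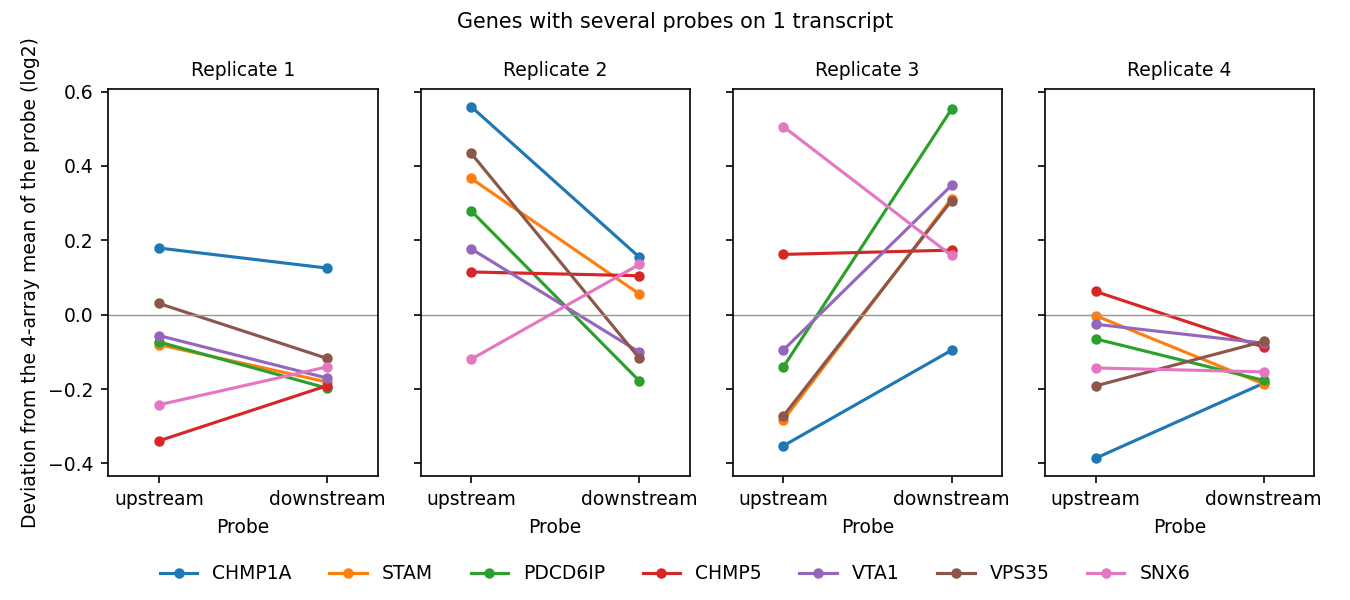
Deviation of a probe from its own 4-array mean (log2) for the probe nearest the 5′ end (upstream) and the probe nearest the 3′ end (downstream) of the transcript in 7 genes, with 1 panel for each replicate; each line is 1 gene. On replicate 3 the line goes up in 6 of 7 genes, and on replicate 2 it goes down in 6 of 7.

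The same was seen over the array as a whole. In 2511 genes with several detected probes on 1 transcript, the downstream probe had the higher deviation on replicate 3 in 76.7%, with a median difference of 0.21. The share was 28.2% on replicate 1, 28.9% on replicate 2 and 49.6% on replicate 4. In the 1237 of these genes whose 2 probes lay within 5 points of GC content, the share on replicate 3 was 74.6% and the median difference 0.18. The 7 ESCRT and retromer genes thus lay on the side of most genes. With quantile normalization the median over the 7 genes was 0.30, with 6 of 7 positive, and 74.6% of all genes were positive. Values of RNA quality for the 4 samples were not analysed here, and their part in this difference was not tested.

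Base composition moved with the deviation on replicate 3 as well. Over the 46 detected probes of the 35 genes, the deviation on replicate 3 correlated with the GC content of the probe at Pearson r = -0.50 and Spearman rho = -0.54. On replicate 1 the values were 0.46 and 0.45. Over all 24633 detected probes they were -0.39 and -0.44 on replicate 3 and 0.38 and 0.44 on replicate 1. Probes share their array and some share a gene, so these correlations are a description. The median GC content of the probes was 36.7% in the VPS4 group, 37.5% in the sorting nexins, 38.3% in ESCRT-0, 39.2% in the retromer core, 41.7% in ESCRT-I, 44.2% in ESCRT-III and 45% in ESCRT-II. ESCRT-II, with the highest content, had a mean deviation on replicate 3 of 0.19 with centring on the median. After quantile normalization it was 0.03, below 0.11 for the retromer core, 0.09 for the VPS4 group and 0.08 for the sorting nexins.

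Within a range of GC content, whether the median deviation of the ESCRT and retromer probes lay above that of all detected probes on replicate 3 depended on the normalization. Under 40% GC, the median deviation was 0.28 for their 21 probes and 0.25 for all. Between 40% and 50% it was 0.16 for 17 probes and 0.10 for all, and over 50% it was 0.06 for 8 probes and -0.07 for all. After quantile normalization the medians were 0.13 and 0.10 under 40%, -0.0080 and -0.0052 between, and -0.11 and -0.09 over 50%, so that these probes lay above all probes under 40% GC and slightly below them otherwise. With the processed signal the medians were 0.24 and 0.18 under 40%, 0.05 and 0.02 between, and 0.0070 and -0.14 over 50%. Those of the ESCRT and retromer probes were then the higher in each range. With centring on the median, replicate 3 was the highest array for 19 of the 21 probes under 40% GC, beside 73.6% of all such probes, for 11 of the 17 between, beside 49.1%, and for 4 of the 8 over 50%, beside 25.9%. After quantile normalization it was the highest for 15 of the 21, beside 61.2%, 7 of the 17, beside 33.2%, and 2 of the 8, beside 14.2%. The part of probe composition and position in the order of the groups was not tested.

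**Figure D4:**
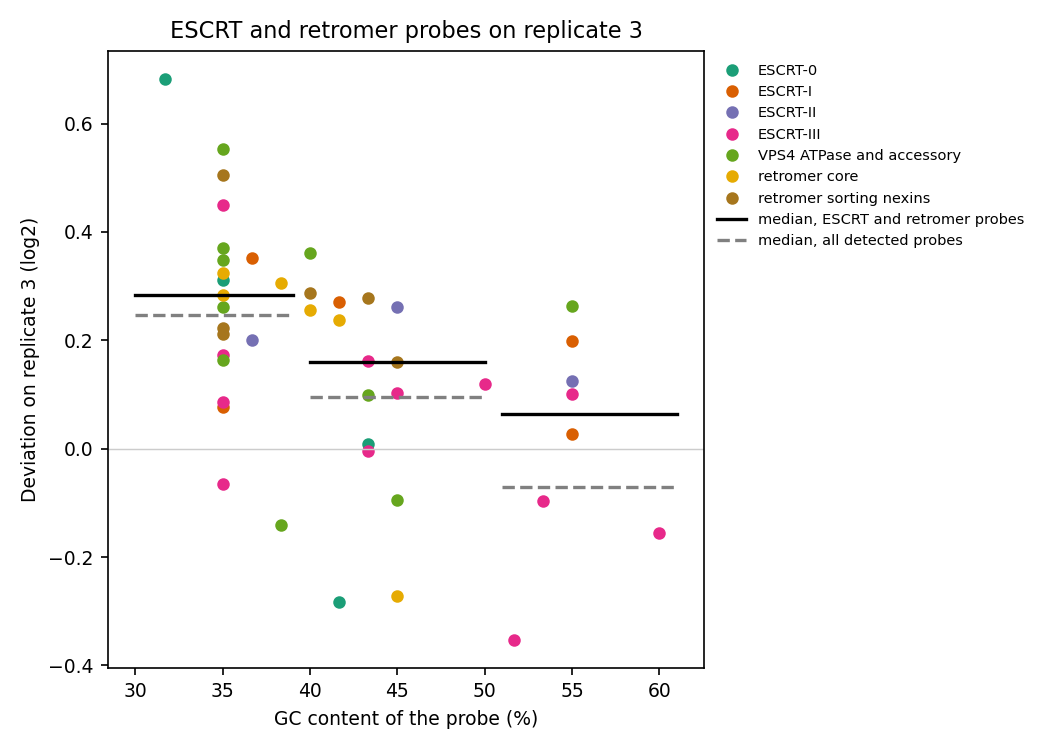
Deviation on replicate 3 from the 4-array mean (log2) against the GC content of the probe (%) for the 46 detected probes of the 35 genes, coloured by group. Solid lines are the medians of these probes under 40%, from 40% to 50% and over 50% GC (0.28, 0.16 and 0.06), and dashed lines those of all detected probes (0.25, 0.10 and -0.07).

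Beyond the 35 genes, 36 of 37 further genes of the ESCRT, retromer and WASH pathways were found on the array by their current or older symbol. All 36 were detected, beside 52.5% of all gene names. Of the 36, 17 spanned more than 1.4-fold, beside 46.4% of detected genes, and 20 were highest on replicate 3, beside 48.5%, both near the share of all genes. Their median SD was 0.21, as for all detected genes. Of these, the 4 with the largest SD over all their probes, with centring on the median, were CHMP3, IST1, WASHC2C and MVB12B. The ranking differed over detected probes only, where another of the 36 genes had an SD of 0.53 (0.27 over all its probes). IST1, an ESCRT-III-like protein, had levels of 2.47, 2.84, 1.22 and 2.04 with its single probe, so that replicate 3 was the lowest. CHMP3, a filament subunit, had an SD of 0.93 because 1 of its 3 probes was marked as an outlier on replicate 1 and left out there, and its SD was 0.15 with that spot kept. WASHC2C, which links the actin-nucleating WASH complex to VPS35, had an SD of 0.52, and of 0.21 over detected probes only. MVB12B, an ESCRT-I subunit, had an SD of 0.38, and of 0.16 over detected probes only.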

How the data were processed

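Each array has its own file from Agilent Feature Extraction 10.7.3.1, as the authors deposited it. The deposited intensity of a spot is linear and had the local background removed by the program, without scaling of one array to another. A p-value and quality flags per spot are deposited beside it, and coordinates refer to GRCh37. From these, control spots, outlying spots and signals at or below 0 were left out, spots of a probe were averaged, the log2 signal was centred on the array median, and a gene with several probes received their median. Detection of a probe required the flag for a signal well above background in over 50% of its spots.

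The members, the gene lists and the measures were chosen with earlier results of these data known. Of genes outside the 35, those well above background on no array and up to 4 with the largest SD were to be named. With 1 condition no group test was run, and replicates are the 4 samples numbered by the labels. Dixon's ratio marked values with 1 array apart. The steps were tested on simulated data. Python 3.11.15, numpy 2.4.6, pandas 2.3.3, scipy 1.17.1, matplotlib 3.10.9, R 4.3.3 and limma 3.58.1 were used. Alternatives were the processed signal centred on its 75th percentile, normexp (offset 50) with quantile normalization, other sets of probes, outlying spots kept and each replicate left out. Centring that counts probes at or below 0 and the comparisons by replicate 3, probe position and GC content were added after seeing the data.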

Additional observations from a re-analysis of the deposited data

Results flagged for a closer look

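Of 43 values examined for 1 array lying apart from the other three (35 genes and 8 class values), 4 were marked. Chance gives about 5% for independent normal values. The 43 values share their arrays, and the class values are means over the same 35 genes, so the count cannot be set against that rate. Replicate 3 was apart for VPS28, with a gap to the nearest replicate of 0.903 of the whole range, for VPS25 (0.853) and for VPS26B (0.839), in each case as the highest array. These 3 of 35 genes stand beside 8.48% of all detected genes, a similar share. The count was 1 of 35 after quantile normalization and 2 of 35 with the processed signal. The mean deviation of ESCRT-III was marked on replicate 4, the lowest array, with a gap of 0.841 of the range. Replicate 4 lay at -0.12 for ESCRT-III and the other arrays between 0.03 and 0.06. This depended on the normalization: replicate 4 lay at -0.02 after quantile normalization, where replicate 3 was lowest at -0.08, at -0.02 with the processed signal, where replicate 1 lay highest at 0.06, and at 0.0052 with all probes counted in the centring.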

How the results depend on the processing

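The detection of the 35 genes did not change when any replicate was left out, and 34 were detected if every probe had to pass. After normexp and quantile normalization the median SD was 0.0831 (all detected genes 0.11), 4 genes spanned more than 1.4-fold (15.5% of all), 1 had an array apart and 16 were highest on replicate 3. The range of the class mean over the arrays was then 0.18 for ESCRT-0 (from 0.39), 0.0125 for ESCRT-I (from 0.18), 0.0852 for ESCRT-II (from 0.30), 0.15 for the VPS4 group (from 0.37), 0.17 for the retromer core (from 0.44) and 0.14 for the sorting nexins (from 0.40). With the processed signal 5 genes spanned more than 1.4-fold (39.1% of all) and the range of ESCRT-III was 0.0843 (from 0.18). When centring counted the probes at or below 0 too, a setting chosen after seeing the data, 14 genes spanned more than 1.4-fold (51.4% of all), 1 had an array apart and the range of ESCRT-I was 0.31. With detected probes only, the range of ESCRT-I was 0.28 and the level of VPS37A moved. With each replicate left out in turn, the median SD ran from 0.0931 to 0.20 and the genes over 1.4-fold from 2 to 8, both lowest without replicate 3. The range ran from 0.21 to 0.39 for ESCRT-0, 0.12 to 0.18 for ESCRT-I, 0.0694 to 0.30 for ESCRT-II, 0.18 to 0.37 for the VPS4 group, 0.19 to 0.44 for the retromer core and 0.17 to 0.40 for the nexins, lowest without replicate 3, and from 0.0288 (without replicate 4) to 0.18 for ESCRT-III. The cause of these shifts was not tested. The levels of all 35 genes moved under both other normalizations, which set another zero. Planned matching of probes to proteins was not run. No paired analysis was possible because the 3 untreated samples were not analysed here. The upstream probe of STAM and the second probe of VPS37A had low signals, the latter not well above background on 2 arrays.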
